A study of Mus musculus with 8 samples.

Results

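The replication-dependent histone genes lie in clusters that older mouse nomenclature names Hist1h, Hist2h, Hist3h and Hist4h. Of 37991 rows in the deposited count table, 57 carried an Ensembl identifier that maps to such a symbol, and 25 of these had a summed count of 10 or more reads over 8 libraries and are described here. They comprised 6 genes for the linker histone H1, 5 for H2A, 7 for H2B, 2 for H3 and 5 for H4. Hist1 on chromosome 13 held 20 of the 25 genes, Hist2 on chromosome 3 held 4 and Hist3 on chromosome 11 held 1. None of the 57 rows had a Hist4h symbol, so that cluster was not measured. At the limit, Hist2h2ac and Hist1h2bj entered with 10 reads each and Hist1h2ab stayed out with 8.

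Libraries were made from adult cardiomyocytes isolated from mouse hearts. All mice carried alpha-MHC MERCREMER MADM, in which the alpha myosin heavy chain promoter, active in heart muscle cells, drives a hormone-inducible Cre recombinase, and MADM (mosaic analysis with double markers) is a pair of split fluorescent reporters that Cre joins between homologous chromosomes. All hearts received adenoviruses encoding 4 cell cycle genes, and cells were isolated 2 weeks later, so no group was untreated. Single colored cells (4 libraries) are labelled as having performed the cell cycle, and double colored cells (4 libraries) as given the same genes but not having performed it. The labels give neither the animals' age nor whether replicates came from separate hearts, so the p-values rest on a spread among libraries that may be technical.

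Replication-dependent histone genes supply the core histones H2A, H2B, H3 and H4 and the linker H1 that package newly copied DNA. Their mRNAs are produced mainly in S phase and most end, without a poly(A) tail, just after a conserved stem-loop that the protein Slbp binds. Some members can also be made as polyadenylated mRNAs that run past the stem-loop, a form known from differentiated cells, and adult cardiomyocytes are known as cells that seldom divide.

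The stem-loop sequences are shown first because the genes differed in reads by what their annotation holds after this element. A 16-base element was sought in every annotated transcript (GENCODE vM21): GG at its start, TTT at positions 7 to 9 counted from its 5′ end, CC at its end, and its outer 6 bases on each side complementary. It occurred in 37 of the 57 cluster genes (64.9%) and in 31 of 21847 other protein-coding genes searched (0.14%). Of the 25 genes with 10 or more reads, 19 held it. Capitals mark the 16 bases, 5′ to 3′, with 5 bases on either side.
Hist1h1c (H1): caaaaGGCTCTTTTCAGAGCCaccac
Hist1h2bg (H2B): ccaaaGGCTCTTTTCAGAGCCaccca
Hist1h2bb (H2B): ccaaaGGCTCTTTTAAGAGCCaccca
Hist1h1t (H1): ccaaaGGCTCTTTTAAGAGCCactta
Hist2h2ac (H2A): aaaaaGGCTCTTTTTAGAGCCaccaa
Hist1h4d (H4): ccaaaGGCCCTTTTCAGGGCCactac
Hist2h4 (H4): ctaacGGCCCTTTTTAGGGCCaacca

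The core shown for Hist1h1c occurred in 21 cluster genes of the H1, H2A, H2B and H3 types, 10 of them with 10 or more reads. Matches in H4 genes had other stems, with the cores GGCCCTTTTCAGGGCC (6 genes), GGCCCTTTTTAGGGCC (2 genes) and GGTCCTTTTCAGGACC (2 genes with no reads), and no gene of another type had these. The core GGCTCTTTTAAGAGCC was found in 5 genes of the H1, H2B and H3 types, and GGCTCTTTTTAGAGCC in 1 H2A gene, Hist2h2ac.

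What follows the stem-loop in the annotation varied widely. In 19 genes the annotated transcript ended within 74 bases of it, which is the short form, and in 18 genes it ran on for 151 to 4884 bases. The 18 long transcripts took 3399 reads, 59.5% of all cluster reads, and the 19 short ones took 112 reads, 1.96%. Hist1h1c alone had 2001 of the 3399 reads, and the median was 42.5 reads per gene for long and 2 for short transcripts. Per kilobase of the deposited gene length, genes with long transcripts had 148.3 reads and those with short transcripts 11.5 reads. The deposited length can be shorter than the annotated transcript, as for Hist1h1d (3821 and 7425 bases). Of the long genes 14, but of the short ones 5, reached 10 reads, the latter being Hist1h4h, Hist1h2bb, Hist1h2bf, Hist1h2bj and Hist2h2ac. The remaining 20 genes had no match and took 38.6% of reads, nearly all from Hist1h2bc, whose annotated transcript splices to a second exon, and Hist2h2be, whose transcript has 2192 annotated bases after the stop codon and no match in them. For 11 of these 20 genes the annotation held fewer than 40 bases after the stop codon, and 3 had no annotated stop codon. In those genes a missing match says little about the element. The signal AATAAA, which directs polyadenylation, stood in the last 50 bases of 5 of the 25 transcripts, of 12 of all 57, and of 40.5% of protein-coding transcripts.

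Many cluster genes share long stretches of sequence with others of their type, the H1 genes least. The alignments were restricted to a mapping quality of 30, per the file headers, which removes reads that fit several copies equally well. Uniqueness was scored on GENCODE vM21 transcripts, whereas reads were counted over the deposited gene models. The 2 can differ in length, as for Hist1h2ai (393 and 1041 bases) and Hist1h4d (1138 and 393 bases). The share of a gene's 50-base words found in no other annotated gene was under 20% for 13 genes, and these took 40 reads in all, with 8 of them at 0 reads. Between 20% and 60%, 23 genes took 233 reads, and at 60% or above 21 genes took 5444 reads. Long transcripts also had more unique words, with a median of 76.7% against 39.6% in short transcripts, so length past the stem-loop and uniqueness moved together and their parts in the read counts were not tested. H1 genes, which differ most in sequence, had a median of 98.9% and all 6 were detected, while H2A genes had a median of 32.7% and 5 of 18 reached 10 reads. H2B genes had a median of 57.9%, with 2.7% as the lowest. Low or zero counts of near-identical H2A, H2B, H3 and H4 genes are therefore uncertain.

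**Figure D1:**
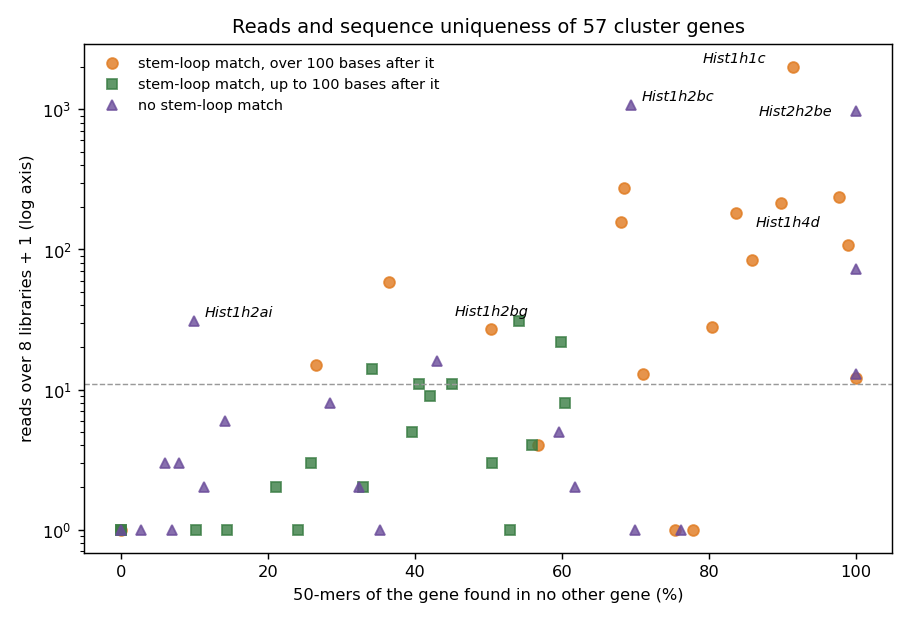
Reads summed over 8 libraries plus 1 (log axis) against the percent of a gene's 50-base words found in no other gene, for 57 cluster genes, with symbol and colour for the annotated transcript form and the dashed line at 10 reads. Words come from GENCODE vM21 transcripts and reads from the deposited gene models. The 13 genes under 20% took 40 reads in all and the 21 genes at 60% or above took 5444, among them Hist1h1c, Hist1h2bc and Hist2h2be.

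The libraries held 23820700 to 30082278 counted reads, of which mitochondrially encoded genes took 84.2% to 88.3% in double and 77.5% to 85.9% in single colored cells. Nuclear-encoded reads numbered 3503353 to 3850391 in double and 3750616 to 6112595 in single colored libraries. The 25 histone genes together had 5663 reads, between 516 and 1027 per library. Heart muscle marker genes were abundant in every library (summed 22492 to 29693 CPM in double and 14113 to 25805 CPM in single colored cells, with CPM the counts per 1000000 reads after TMM scaling), as the labelled cell type has them.

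Histone reads came mostly from a few genes. Hist1h1c, Hist1h2bc and Hist2h2be together took 4055 of the 5663 reads (71.6%, and 65.5% to 77.9% in single libraries taken one by one). H1 genes took 43.9% of the reads and H2B genes 40.7%, against 7.24% for H2A, 6.83% for H4 and 1.27% for H3. Per kilobase of the deposited gene length, the highest mean levels were 6.56 CPM for Hist1h2bc, 5.79 for Hist1h1c, 2.46 for Hist1h4d and 1.68 for Hist2h2be. The scale depends on the gene model, since Hist1h4d spans 393 bases in the deposited table and 1138 bases in GENCODE vM21, and Hist1h2bc 736 and 1156 bases. Among H2A genes the Hist3 gene Hist3h2a was the highest, at 0.614 CPM per kilobase, but 708 of its 1990 bases are shared with Trim17 on the same strand and its reads are uncertain.

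The comparison of single with double colored cells asked whether histone transcripts differ between cells that had cycled and cells that had not. In sum, the group means lay closer together than the spread within either group. Summed over the 25 genes, the level was 26.2, 23.5, 27.6 and 24.8 CPM in double colored replicates 1 to 4 and 21.5, 24.7, 26.7 and 29.2 CPM in single colored replicates 1 to 4. The groups overlapped fully, the single colored libraries holding both the lowest and the highest value, and the means were 25.5 ± 1.80 and 25.5 ± 3.25 CPM (SD, n = 4 each). As counts per 1000000 nuclear-encoded reads without TMM scaling, the sums were 161.9 ± 13.7 in double and 173.0 ± 15.5 in single colored libraries (SD, n = 4 each). In bulk samples, fewer cells holding a transcript and less of it per cell cannot be told apart.

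None of the 10 histone genes that passed the filter on low counts was called (edgeR quasi-likelihood test, adjusted p under 0.05), against 309 of all 12466 tested genes (2.48%, with 2.32% higher and 0.16% lower in single colored cells). None had an unadjusted p under 0.05 either, which 15.1% of tested genes had, and DESeq2 called none. Of the 10, 4 had positive and 6 negative log2 fold changes (single over double), and the median was −0.04 beside −0.005 over all tested genes (6153 positive, 6313 negative). Their adjusted p-values ran from 0.834 to 0.989 and their standard errors from 0.191 to 0.791 on the log2 scale. In none of the 10 did the groups separate, which 9.14% of tested genes did.

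Among the linker histones, which bind the DNA between nucleosomes, Hist1h1c (ENSMUSG00000036181, mm9 chromosome 13, 23830676 to 23832235, plus strand, 1 exon) had the most reads, 2001. Its level was 9.63, 8.59, 10.8 and 7.86 CPM in double and 7.15, 7.08, 10.2 and 11.03 CPM in single colored replicates 1 to 4. Single colored cells spanned a wider range on both sides, and the log2 fold change was −0.06 ± 0.19 (SE), with a 95% interval of −0.46 to 0.35 (edgeR adjusted p = 0.936). Its standard error was the smallest of the 10. Hist1h1d had 0.796, 1.05, 1.08 and 1.67 CPM in double and 0.943, 1.08, 0.677 and 1.47 CPM in single colored replicates 1 to 4, overlapping throughout (log2 fold change −0.15 ± 0.38). Hist1h1e had 1.17, 0.409, 0.648 and 0.627 CPM in double and 0.655, 0.419, 0.703 and 0.952 CPM in single colored replicates, with the highest value in a double colored library (−0.07 ± 0.47).

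Hist1h1b, Hist1h1a and Hist1h1t fell below the filter. Hist1h1b had 11, 4, 4 and 4 reads in double and 9, 19, 12 and 9 reads in single colored replicates 1 to 4, and scaled to CPM, double colored replicate 1 lay above 3 of the 4 single colored libraries. Hist1h1t, known as the testis linker histone, had 11 reads in all, 6 of them in single colored replicate 2.

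The core histone genes with the most reads encode H2B, which pairs with H2A in the nucleosome. Hist1h2bc (ENSMUSG00000018102, mm9 chromosome 13, 23776068 to 23784357, plus strand, 2 exons) had 5.44, 3.95, 4.15 and 5.43 CPM in double and 3.93, 4.92, 5.49 and 5.32 CPM in single colored replicates 1 to 4. Both groups ran over nearly the same range, with a log2 fold change of 0.05 ± 0.21 and a 95% interval of −0.39 to 0.48 (edgeR adjusted p = 0.952). Hist2h2be (mm9 chromosome 3, 96025044 to 96027661, plus strand, 1 exon) had 3.81, 4.32, 6.14 and 3.59 CPM in double and 2.99, 4.75, 5.15 and 4.48 CPM in single colored replicates, its highest value in a double and its lowest in a single colored library (−0.04 ± 0.24, 95% interval −0.54 to 0.46). Hist1h2be spread further, with 0.796, 0.409, 0.432 and 1.21 CPM in double and 0.707, 0.838, 1.43 and 0.357 CPM in single colored replicates (0.24 ± 0.51). It shares 163 bases with Gm11398 on the same strand, so a part of its reads is uncertain.

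H2A genes were low. Hist1h2ac (mm9 chromosome 13, 23773336 to 23775817, minus strand) had 11, 6, 25 and 1 reads in double and 12, 15, 1 and 12 reads in single colored replicates 1 to 4. A library with 1 read occurred in each group, and the log2 fold change of −0.50 ± 0.79 had a 95% interval of −2.17 to 1.17, so changes of 2-fold in either direction were not resolvable at this depth. Without double colored replicate 3, the library with 25 reads, the log2 fold change was 0.33. Hist3h2a had 0.837, 1.32, 0.691 and 1.92 CPM in double and 1.81, 1.19, 0.546 and 1.47 CPM in single colored replicates, overlapping fully (0.07 ± 0.43).

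H3 and H4 form the tetramer at the centre of the nucleosome. Hist1h4d (mm9 chromosome 13, 23673467 to 23673859, plus strand) had 1.00, 1.00, 0.691 and 1.00 CPM in double and 1.15, 1.19, 0.390 and 1.31 CPM in single colored replicates 1 to 4. Replicate 3 was the lowest of both groups, the other 3 single colored libraries lay above all double colored ones, and the log2 fold change was 0.12 ± 0.42 (edgeR adjusted p = 0.943). Hist2h4 had 0.419, 0.954, 0.346 and 0.293 CPM in double and 0.262, 0.524, 0.338 and 0.873 CPM in single colored replicates, with 1 high library in each group (−0.03 ± 0.56). Hist1h4h, below the filter, had 4, 1, 10 and 1 reads in double and 4, 4, 3 and 3 in single colored replicates. No H3 gene passed the filter. Hist2h3c2 had 6, 9, 3 and 6 reads in double and 8, 6, 13 and 7 in single colored replicates, and Hist1h3e had 14 reads, 7 of them in single colored replicate 3.

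**Figure D2:**
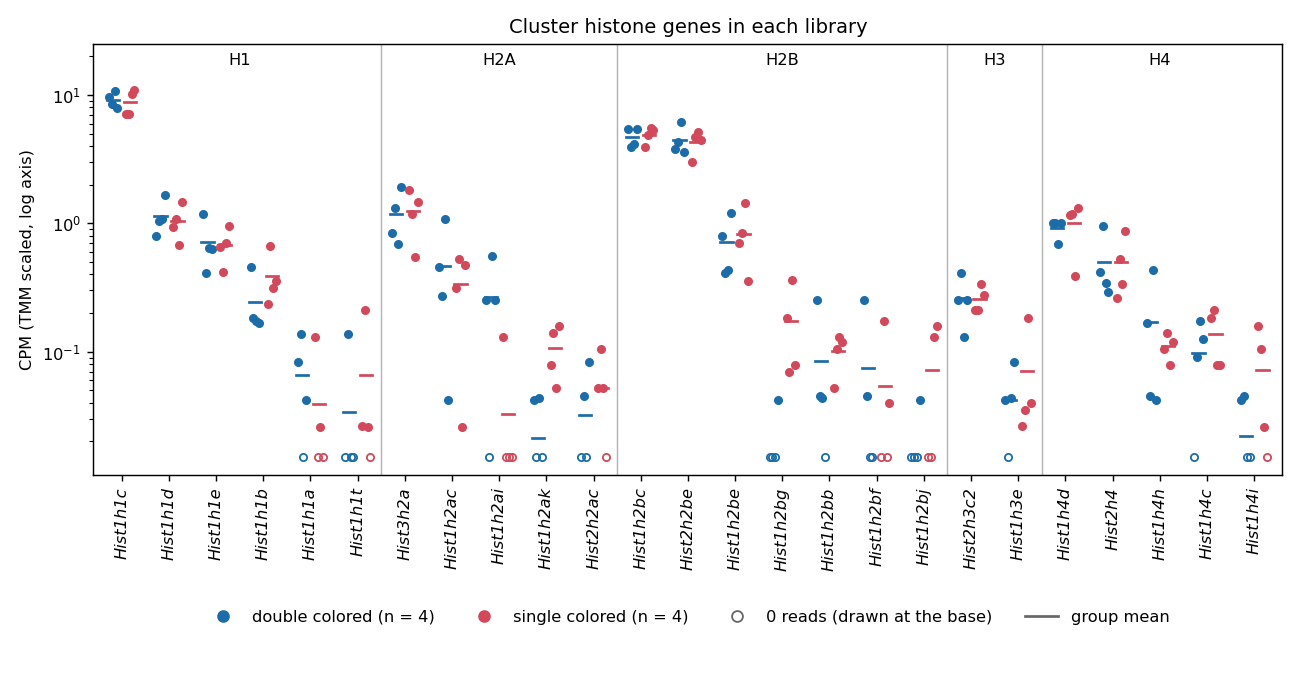
Level of each of the 25 genes in each library, in CPM scaled with TMM on a log axis, with group means as bars and libraries without reads as open circles at the base. Hist1h1c, Hist1h2bc and Hist2h2be stand above 2.9 CPM in every library, the groups overlap for all genes except Hist1h2bg and Hist1h2ak, and below 0.3 CPM many libraries have 0 reads.

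By type, the summed levels followed the single genes. H1 was 11.4 ± 1.16 CPM in double and 11.1 ± 2.20 CPM in single colored cells, and H2B 10.1 ± 0.904 and 10.5 ± 1.99 CPM (SD, n = 4 each). H2A was 1.98 ± 0.420 and 1.78 ± 0.757 CPM, H4 1.72 ± 0.290 and 1.83 ± 0.648 CPM, and H3 0.302 ± 0.0988 and 0.330 ± 0.132 CPM. In all 5 types the difference between the means was smaller than either group's SD, and the SD was larger in single colored cells. Genes with long annotated transcripts summed to 15.3 ± 0.586 CPM in double and 15.3 ± 2.21 CPM in single colored cells. Genes with short annotated transcripts summed to 0.374 ± 0.243 and 0.390 ± 0.132 CPM.

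The 15 genes below the filter had 361 reads together, 6.38% of histone reads, with no more than 72 reads in any of them. They were compared in a fit on all 17526 genes with 10 or more summed reads, in which 306 genes (1.75%) were called. None of the 25 histone genes was called there, with adjusted p-values of 0.220 or above, 14 had positive and 11 negative log2 fold changes, and the median was 0.06 beside 0.015 over all genes in that fit. Unadjusted p was under 0.05 for 2 of the 25, Hist1h2bg and Hist1h2ai, against 13.6% of all genes in the fit. Groups did not overlap for 2 of the 25, Hist1h2bg and Hist1h2ak, against 7.73% of all genes, a share near the background.

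These 3 genes, of which Hist1h2bg and Hist1h2ak were picked after their values were seen, had differences of unlike sign, none past the threshold. Hist1h2bg, an H2B gene with a stem-loop and 155 annotated bases after it, had 0, 0, 0 and 1 reads in double and 7, 2, 14 and 2 reads in single colored replicates 1 to 4. Every single colored library lay above every double colored one. Of the 50-base words of Hist1h2bg, 50.3% are unique to it. The gene reached 10 reads through its single colored libraries alone and was picked for this pattern, so its log2 fold change of 3.58 ± 1.32 (edgeR adjusted p = 0.220) is a description. It was 2.92 without single colored replicate 3 and 5.37 without double colored replicate 4, the library with the 1 double colored read. In the authors' deposited table, with the sign turned to single over double, its log2 fold change was 3.57 with an FDR of 0.387, the lowest FDR among the 17 histone genes listed there with a p-value. Hist1h2ak had 1, 0, 1 and 0 reads in double and 3, 4, 2 and 4 in single colored replicates. It too reached 10 reads through the single colored libraries and was picked for its groups that do not overlap (edgeR adjusted p = 0.503). Hist1h2ai had 6, 0, 13 and 6 reads in double and 5, 0, 0 and 0 reads in single colored replicates (log2 fold change −2.76 ± 1.26, quasi-likelihood adjusted p = 0.340 from edgeR). Leaving out 1 library moved this value between −2.12, when double colored replicate 3 was left out, and −5.85, when single colored replicate 1 was left out and that group had 0 reads, and in 6 of 8 such fits its unadjusted p was no longer under 0.05. Of the 50-base words in the annotated transcript of Hist1h2ai (393 bases), 9.9% are unique to it. Its reads were counted over a longer model of 1041 bases that was not scored as a whole, so its reads are uncertain.

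**Figure D3:**
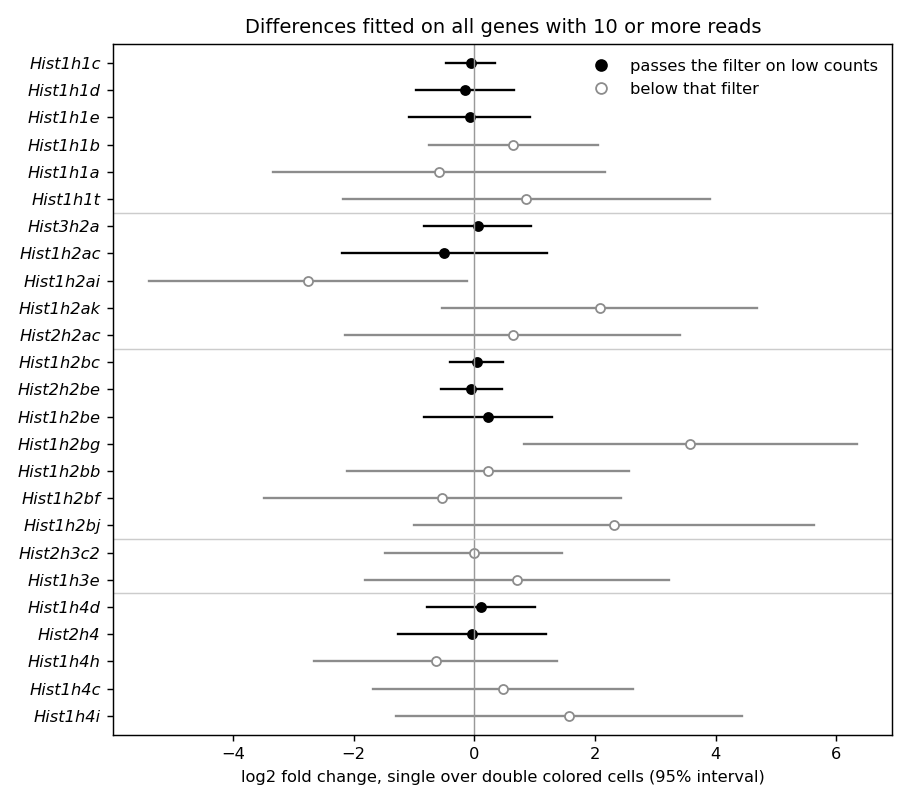
Log2 fold change, single over double, with its 95% interval for the 25 genes, from the fit on all genes with 10 or more reads, filled where the gene passed the filter on low counts. Intervals of 23 genes cross 0, and those of Hist1h2bg (3.58) and Hist1h2ai (−2.76), both below the filter, do not before adjustment.

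H2A and H2B genes often stand head to head and share the bases between their starts. There were 9 such pairs, with 172 to 305 bases between the annotated gene starts in mm9, among the 57 genes. H2B had more reads in 6 pairs, H2A in 2, and 1 pair tied. In 1 of the pairs led by H2A the partner, Hist3h2bb-ps, is named as a pseudogene and had 0 reads beside 272 for Hist3h2a. The other such pair had 5 against 3 reads and the tied pair 2 against 2. A pair led by H2B, Hist1h2ba and Hist1h2aa, had 1 against 0, so much of this tally rests on few reads. In both pairs with 10 or more reads on either side the H2B gene was far higher: Hist1h2bc had 1079 reads and Hist1h2ac 83 (40.8 times more per kilobase), and Hist2h2be had 975 and Hist2h2ac 10 (20.7 times). Differing gene models and unique shares enter both ratios. The bases between the starts of Hist1h2ac and Hist1h2bc (RefSeq promoter table, GRCm38.p6 chr13:23683960-23684198, minus strand, 239 bases, 42.7% GC) run from the Hist1h2bc side to the start of Hist1h2ac as printed and are shown because this one interval faces both the highest H2B gene and an H2A gene of low count. Capitals mark 3 motifs searched on both strands: the CCAAT box (printed as ATTGG where it lies on the other strand), the TATA box motif TATAAA, and the octamer ATGCAAAT.
Hist1h2bc side to Hist1h2ac start: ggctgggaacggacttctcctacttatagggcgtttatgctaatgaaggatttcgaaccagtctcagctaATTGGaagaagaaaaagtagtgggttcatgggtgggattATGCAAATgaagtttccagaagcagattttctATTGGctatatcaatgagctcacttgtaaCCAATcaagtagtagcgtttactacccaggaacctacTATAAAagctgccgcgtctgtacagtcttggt
CCAAT matched 3 times, TATAAA once and ATGCAAAT once. In windows of this length over 32851 RefSeq promoters, the shares with a match were 32.9%, 11.9% and 1.55%. A match describes letters and not a bound site.

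Other histone genes and the machinery of histone mRNA were read from lists. Of 18 replication-independent histone genes listed, 16 were in the table and 9 were tested. None rose or fell, 3 log2 fold changes were positive and 6 negative, and the median was −0.18. The lowest p belonged to H2afj, an H2A variant (1.41 ± 0.222 CPM in double, 1.02 ± 0.233 CPM in single colored cells, log2 fold change −0.46 ± 0.34, edgeR adjusted p = 0.581), H2afv, an H2A.Z form (−0.27 ± 0.23), H3f3a, a gene for H3.3, which is deposited outside S phase (−0.31 ± 0.38), and H2afz, the H2A.Z gene (−0.20 ± 0.33). As a group they summed to 40.6 ± 3.23 CPM in double and 38.3 ± 2.54 CPM in single colored cells.

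Of 25 tested genes for transcription and 3′ processing of histone mRNA, none was called, 14 were positive and 11 negative, and the median was 0.02. Slbp, the stem-loop binding protein, was at 3.18 ± 0.789 CPM in double and 3.15 ± 0.849 CPM in single colored cells (log2 fold change −0.02 ± 0.27). Mif4gd, an Slbp partner in histone mRNA translation, had an unadjusted p under 0.05, with 1.71 ± 0.711 CPM in double and 0.833 ± 0.234 CPM in single colored cells (−1.04 ± 0.39, edgeR adjusted p = 0.203). Eri1, an exonuclease of histone mRNA ends (0.42 ± 0.20), Upf1, a helicase of histone mRNA decay (0.29 ± 0.23), and Npat, the histone gene coactivator (0.24 ± 0.20), had the next lowest p.

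Of 25 tested genes for histone chaperones and modifiers of new histones, none was called, 15 were positive and 10 negative, and the median was 0.10. Daxx, a chaperone of H3.3, had 3.29 ± 0.652 CPM in double and 5.10 ± 1.28 CPM in single colored cells (0.63 ± 0.24, edgeR adjusted p = 0.202). Mms22l, a replication fork protein that binds new H3-H4 (0.98 ± 0.55), Rbbp7, a subunit of histone-binding complexes (−0.24 ± 0.15), and Nap1l4, a chaperone of H2A-H2B (−0.22 ± 0.15), followed.

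The S phase list held no histone genes. Of 28 tested genes 21 were positive and 7 negative, with a median of 0.33, 6 had an unadjusted p under 0.05, all higher in single colored cells (9.02% of all tested genes had such a p on that side), and none was called. With the replicate number as a block 4 rose, Rrm2, Mcm6, Mcm5 and Gins2, beside 619 of all 12466 genes (4.97%). Gins2, a subunit of the replicative helicase, was at 0.227 CPM in double and 0.926 CPM in single colored cells (2.00 ± 0.57, edgeR adjusted p = 0.0810, and 0.0445 with the block). Mcm6 (0.84 ± 0.25, adjusted p = 0.0944, and 0.0285 with the block) and Mcm5 (1.60 ± 0.53, 0.146 and 0.0313) belong to the same helicase, and Cdt1 (1.59 ± 0.54, 0.152, and not called with the block at 0.0765) loads it. Rrm2, a subunit of ribonucleotide reductase, had the lowest adjusted p with the block (1.04 ± 0.45, 0.296 without it and 0.0184 with it). The other genes of the replicative helicase in the list were of mixed sign and not called, with or without the block. They were Gins1 (−0.80 ± 0.51), Mcm3 (−0.03 ± 0.38), Mcm4 (0.36 ± 0.34), Mcm7 (0.43 ± 0.33) and Cdc45 (0.86 ± 0.42). Pcna, the sliding clamp, had a log2 fold change of 0.010 ± 0.25. Summed, the S phase list was 108.7, 65.9, 67.8 and 79.4 CPM in double and 143.4, 88.6, 85.0 and 100.5 CPM in single colored replicates 1 to 4, higher in the single colored library of all 4 numbered pairs. Mki67 (mean 30.6 CPM in double and 37.7 CPM in single colored cells) and Top2a (10.5 and 14.9 CPM) were its highest genes. They carry a large part of that sum and are not specific to S phase, so the sum does not measure S phase alone. The histone sum was higher in 2 of the 4 pairs, and single colored replicate 1, with the highest S phase sum, had the lowest histone sum. The difference between the lists was not tested.

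Markers of other cell types also moved between the groups. Over all 12466 tested genes, 2.32% rose and 0.16% fell, and with the replicate block 619 (4.97%) rose and 320 fell. Of 10 tested lymphocyte genes (13 listed) 7 rose, and 10 with the block. The list summed to 2.97 to 11.8 CPM in double and 26.0 to 59.1 CPM in single colored libraries. Of 13 myeloid genes 7 rose and 1 fell, and with the block 10 rose and 1 fell, with sums of 133.7 to 180.5 and 259.1 to 444.1 CPM. The gene that fell was Cd163 (log2 fold change −1.47 ± 0.33, edgeR adjusted p = 0.0240). Mrc1 was also negative (−0.40 ± 0.17) but was not called, and the other 11 were positive, so the myeloid list did not move as one. Of 8 fibroblast genes 1 rose, and 4 with the block, with sums of 300.2 to 738.1 CPM in double and 622.9 to 1848 CPM in single colored libraries. None of 7 endothelial genes was called, and with the block 1 rose, Vwf (adjusted p = 0.0105). None of 10 cardiomyocyte genes was called, all 10 log2 fold changes being negative with a median of −0.45, and with the block 2 fell, Pln (adjusted p = 0.0366) and Tnni3 (0.0423). The lowest p in each list belonged to Cd3e (log2 fold change 2.53 ± 0.37), Nkg7 (3.398 ± 0.52), Il7r (2.77 ± 0.45) and Cd4 (2.73 ± 0.49) for lymphocytes, and to Ctss (2.30 ± 0.21), Itgam (1.52 ± 0.16), Itgb2 (1.88 ± 0.25) and Ptprc (1.56 ± 0.26) for myeloid cells. For fibroblasts they were Col1a1 (1.76 ± 0.39), Col1a2 (1.44 ± 0.47), Col3a1 (1.00 ± 0.42) and Tcf21 (−0.79 ± 0.48), of which Col1a1 passed without the block. For endothelial cells they were Vwf (0.62 ± 0.26), Emcn (0.32 ± 0.18), Cdh5 (−0.24 ± 0.15) and Kdr (−0.22 ± 0.15), and for cardiomyocytes Pln (−0.53 ± 0.20), Tnni3 (−0.53 ± 0.21), Myl2 (−0.47 ± 0.21) and Ryr2 (−0.44 ± 0.22). Single colored replicate 1 had the highest lymphocyte, myeloid and fibroblast sums and the lowest cardiomyocyte sum. The part of other cell types in the histone and S phase values was not tested.

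**Figure D4:**
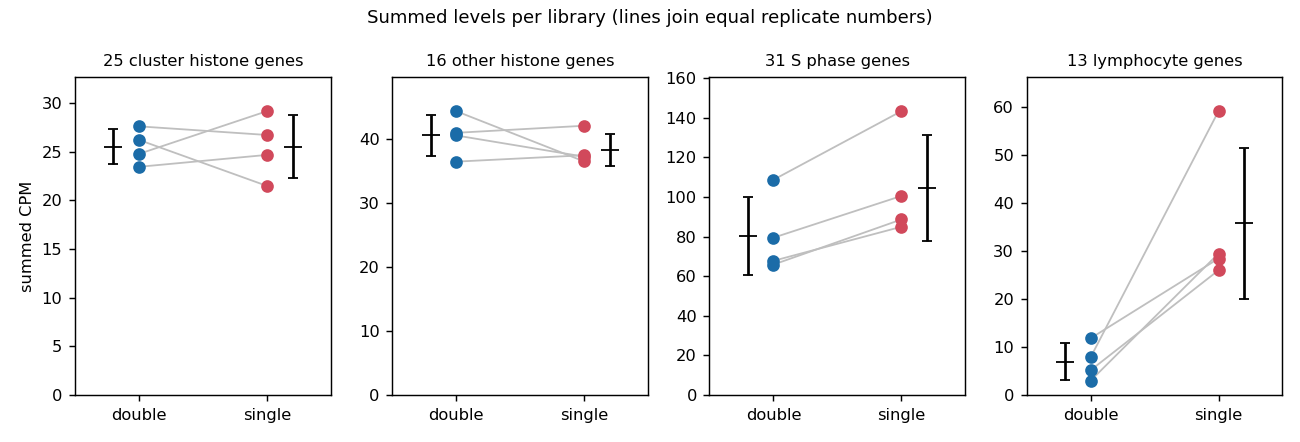
Summed CPM per library (linear axes from 0) for the 25 cluster histone genes, 16 replication-independent histone genes, 31 S phase genes and 13 lymphocyte genes, with lines joining libraries of equal replicate number and mean ± SD beside each group of 4. The cluster histone means are 25.5 CPM in both groups, while the S phase and lymphocyte sums are higher in the single colored library of every pair.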

How the data were processed

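Per the labels' protocols, total RNA came from the miRNeasy Micro Kit and cDNA from NuGEN's Ovation RNA-seq System v2. The submitters' processing notes name STAR 2.5.2b, featureCounts, Subread and mm9; the strand setting was not given there. The deposited values used are raw read counts per gene and whole numbers, not estimated counts, as the file headers name them. The authors' deposited log2 fold changes, p-values and FDR were read for the 25 genes only, and 24 CPM and FPKM columns were not used. Symbols were matched by Ensembl identifier (GENCODE vM21) for 32919 genes, and 5072 had none. All 8 libraries were fitted with edgeR 4.0.16 in R 4.3.3 (filterByExpr with a minimum count of 10, TMM, robust quasi-likelihood F-test, Benjamini-Hochberg adjustment over 12466 genes at 0.05). CPM use TMM factors (0.733 to 0.972 in double, 0.953 to 1.44 in single colored libraries). Alternatives were DESeq2 1.42.0, other scalings and filters, a replicate block and leaving out each library. Scripts were tested on simulated data.

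Same-numbered libraries deviated together from their group means (correlations across genes of 0.257, 0.126, 0.136 and 0.139). The highest correlation between other numbers was 0.108. Every pair met the rule of exceeding 0.1, but so did that mismatched one, and pairs 2 to 4 lie little above it. The rule thus cannot decide whether the numbers pair libraries. The main fit, with its p-values and standard errors, left the numbers out (309 genes called). The replicate block was fitted as an alternative (939 called). The members and lists were chosen with earlier results of these data known. Every gene was counted, and named were those tested, the 3 highest per kilobase in each type, and in each list the 4 with the smallest p. Slbp, Pcna, Rrm2, Gins1, Mcm3, Mcm4, Mcm7, Cdc45, Cd163 and Mrc1 were added after their values were seen, as were Hist1h1t, Hist1h2bg and Hist1h2ak.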

Additional observations from a re-analysis of the deposited data

Results flagged for a closer look

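In 6 of 44 groups of 4 libraries, 1 library lay far from the other 3 (Dixon's test at 95%). A chance rate of about 1 in 20 groups holds for normally distributed values. Several of these groups hold few reads, so that rate does not apply to them and the count cannot show an excess. For Hist1h4d, replicate 3 was the low library in both groups, at 0.691 CPM in double colored cells, where the others had 1.00 CPM, and at 0.390 CPM in single colored cells, where the others had 1.15 to 1.31 CPM. Hist1h1b was high in double colored replicate 1, at 0.461 CPM beside 0.167 to 0.182 CPM. Hist1h3e was high in single colored replicate 3, at 0.182 CPM beside 0.0262 to 0.0397 CPM. The other flags rest on libraries at 0 reads: Hist1h2ai in single colored replicate 1 at 0.131 CPM, and Hist1h2bg in double colored replicate 4 at 0.0418 CPM, which is 1 read.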

How the results depend on the processing

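No histone gene was called in any of the 15 alternatives to the main test. In 150 alternative fits of single tested histone genes none crossed the threshold, 29 had the other sign, and the lowest adjusted p was 0.212, with library totals alone. That scaling moved the median of all genes by 0.49 on the log2 scale. The histone genes then moved by a like amount: 9 of the 10 tested were positive with a median of 0.42. The log2 ratio of the summed level was 0.47, of H1 0.42, of H2A 0.28, of H2B 0.53, of H3 0.69 and of H4 0.53. With each library left out in turn the summed log2 ratio ran from −0.08 to 0.07. The replicate block changed no call of a histone gene (log2 fold changes −0.29 to 0.22, lowest adjusted p 0.879).

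The count over all tested genes moved from 309 to 1390 with library totals alone, 553 with DESeq2, 805 with no filter and 939 with the replicate block (619 higher, 320 lower), and to between 134 and 304 with a library left out (191 without replicate 2 and 134 without replicate 4 of double colored cells, and 142 without replicate 1 of single colored cells). S phase calls were 8 with totals alone, 1 with DESeq2, 3 with no filter and 4 with the replicate block, and mRNA processing and chaperone genes each had 1 call with totals alone. Few reads limit the 15 genes below the filter, whose standard errors were 0.670 to 1.58.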
